A study of Mus musculus with 16 samples.

Results

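The enzymes of drug and xenobiotic metabolism were taken as every gene whose symbol belongs to the cytochrome P450 (Cyp, without Cyp51), flavin monooxygenase (Fmo), aldehyde dehydrogenase (Aldh), epoxide hydrolase (Ephx), paraoxonase (Pon), glutathione transferase (Gst), microsomal glutathione transferase (Mgst), UDP-glucuronosyltransferase (Ugt) or sulfotransferase (Sult) families. The array held 86 such genes among 8251 genes with a probe set of 1 symbol, which is 1.04% of them. A gene with several probe sets is given by the one brightest on average over the arrays. Of the 86, 46 passed a filter on low signal (a mean above the 40th percentile of all probe sets, 116 signal units) and 40 did not. The filter kept 13 of 39 Cyp genes, 2 of 2 Fmo, 8 of 10 Aldh, 2 of 2 Ephx, 3 of 3 Pon, 12 of 15 Gst, 3 of 3 Mgst, 3 of 9 Sult and 0 of 3 Ugt genes. The enzymes just outside the filter were Gsta4 and Cyp2d9, with mean log2(signal + 16) of 6.84 and 6.67, and those just inside were Cyp1a1 and Fmo5, with 7.28 and 7.31.

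The study profiled retroperitoneal fat of gonadectomised (GDX) mice of both sexes on Affymetrix arrays, after a subcutaneous injection of 0.1 mg of the androgen dihydrotestosterone (DHT). Each sex had 2 vehicle arrays and 1 array at each of 6 times after DHT (1, 3 and 6 h, called early, and 12, 18 and 24 h, called late), which gives 16 arrays in all. Every animal, controls included, lacked its gonads, so a female-to-male difference here is one between gonadectomised animals. It takes the vehicle and DHT arrays together, and 12 of the 16 arrays were after DHT. The labels give neither strain nor age, and they say that a group's fat was gathered from all its mice. An array may therefore stand for pooled animals, and the p-values measure the spread between arrays. No DHT time had a second array of the same sex, so that spread is mostly how the sex gap varied between times.

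Xenobiotic metabolism runs in steps: oxidation by Cyp, Fmo and Aldh enzymes or hydrolysis by Ephx and Pon enzymes exposes a reactive group, and transferases then attach glutathione, sulfate or glucuronic acid so that the product can leave the cell. Liver is the best known site, but fat stores lipophilic compounds and holds enzymes of most of these families, several of which also handle retinoids, fatty acid epoxides and lipid aldehydes made in the tissue itself. The aryl hydrocarbon receptor switches on Cyp1a1 and Cyp1b1, and the Nrf2 factor switches on many Gst genes.

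Of the 16 arrays 2 stood apart, one of them for most enzymes. On male vehicle replicate 2, genes of skeletal muscle were far higher than on any other male array: the summed signal of the muscle list was 396700, against 42340 to 74970 on the 7 other male arrays and 21220 to 54120 on the females. The adipocyte list summed to 32610 there, against 101700 to 136700 on the other male arrays, and the macrophage list to 4505, against 12420 to 16290. The enzymes were low there as well: it was the lowest of the 8 male arrays for 32 of the 46 and the highest for 5. For 24 of the 46 the signal was under 0.5 times the mean of the other male arrays, and the median ratio was 0.418. Cyp2e1, which oxidises ethanol and small solvents, read 1180 there and 22761 to 34984 on the other male arrays. Gstp1, the pi-class transferase, read 8700 against 4493 to 5062. Each comparison is therefore given with all 16 arrays and with the 15 that leave this one out, a choice made after its muscle genes were seen. The other was the female 12 h array, where exocrine pancreas genes summed to 99490, against 1248 to 8766 on the 15 other arrays; it was kept, and values without it are given where late and early arrays are compared. Xist and the Y-linked Eif2s3y matched the labelled sex on all 16 arrays. In whole tissue, fewer cells of a type and less RNA per cell cannot be told apart.

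**Figure D1:**
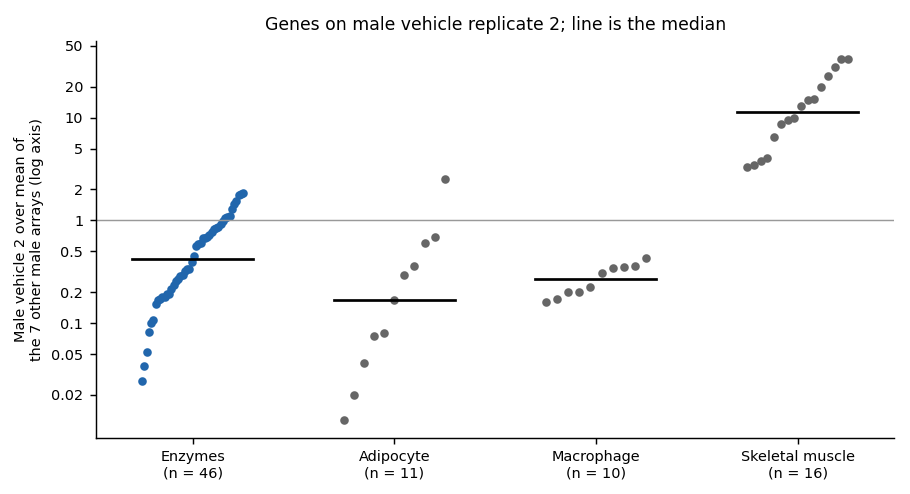
Signal on male vehicle replicate 2 divided by the mean of the 7 other male arrays (log axis), for the 46 enzymes and the adipocyte, macrophage and skeletal muscle genes that passed the filter. Each point is a gene and each line a median: 0.418 for the enzymes, 0.168 for adipocyte, 0.268 for macrophage and 11.4 for muscle genes.

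DHT changed none of the 46 enzymes past the threshold. The test was limma on log2(signal + 16) with terms for sex and time, with p-values adjusted by the Benjamini-Hochberg method over the 5686 genes that passed the filter and a threshold of 0.05. For the mean of all 6 times against vehicle, 0 of 46 enzymes were called with 16 arrays and 0 of 46 with 15. Over all genes 0.0703% and 0.0879% were called. With 16 arrays 4 enzymes had an unadjusted p under 0.05 (8.7%, against 5.1% of all genes). With 15 arrays 5 did (10.9%, against 3.06%). At single times, 0 enzymes were called with either set, where the share of all genes called was 0 at 1, 18 and 24 h, 0.0176% at 3 h and 0.0528% at 6 and 12 h with 16 arrays. With 15 arrays that share was 0 at 1 h, 0.0176% at 3 and 24 h, 0.0352% at 18 h, 0.0703% at 12 h and 0.0879% at 6 h. The number of enzymes with an unadjusted p under 0.05 was 0, 0, 1, 4, 4 and 4 at the 6 times in turn with 16 arrays, and 4, 1, 3, 6, 10 and 7 with 15. With 16 arrays that was 0%, 0%, 2.17%, 8.7%, 8.7% and 8.7% of the enzymes, against 2.39%, 1.79%, 1.81%, 2.16%, 5.08% and 2.27% of all genes. With 15 arrays it was 8.7%, 2.17%, 6.52%, 13%, 21.7% and 15.2%, against 4.08%, 2.09%, 2.5%, 3.64%, 6.4% and 3.87%. An F test over the 6 times called 0 enzymes, against 0.0528% of all genes with 16 arrays and 0.0879% with 15. It gave 2 and 6 enzymes an unadjusted p under 0.05 (4.35% and 13%, against 0.95% and 3.66% of all genes). The median enzyme stood 0.22 above vehicle on the log2 scale with 16 arrays and -0.01 with 15, against 0.04 and 0.01 for all genes, so the shift seen with 16 arrays was not seen without male vehicle replicate 2.

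The nearest approach to a time pattern was in Gsta3 and Aldh1a1. Gsta3, an alpha-class glutathione transferase, read 273, 352 and 505 at 1, 3 and 6 h in males and then 715, 657 and 568 at 12, 18 and 24 h. In females it read 255, 205 and 244 at the early times and 434, 454 and 528 at the late ones. The vehicle signals were 390 and 76.5 in males and 256 and 254 in females. Within each sex all 3 late arrays lay above all 3 early ones, but late females overlapped early males. How many of all genes kept that order within both sexes was not counted. The mean of 12, 18 and 24 h exceeded that of 1, 3 and 6 h by 0.88 ± 0.14 (SE) on the log2 scale with 15 arrays, with limma's adjusted p = 0.0521, just short of the threshold. With all 16 arrays the difference was the same and its adjusted p was 0.9996.

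Aldh1a1, which turns retinaldehyde into retinoic acid, followed the same order. Male signals were 2692, 2599 and 3147 at 1, 3 and 6 h and 3850, 3656 and 3766 later, and female signals were 2064, 1954 and 2577 and then 3074, 3079 and 3180. Its vehicle arrays read 2364 and 3081 in males and 2060 and 2586 in females, with 1 male vehicle below the 3 early male arrays and 1 female vehicle just above the 3 early female ones. The late arrays of each sex again lay above its early arrays. The late-minus-early difference was 0.46 ± 0.09 (SE, log2), with limma's adjusted p = 0.126 on 15 arrays. Without the female 12 h array as well, the differences were 0.91 ± 0.15 for Gsta3 and 0.48 ± 0.10 for Aldh1a1, with limma's adjusted p = 0.181 and 0.404. In neither gene did all 6 late arrays lie above all 6 early arrays; that held for 0 of 46 enzymes and 0.158% of all genes, and the opposite order for 0 enzymes and 0.106% of genes.

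No other enzyme came closer. With 15 arrays 0 of 46 enzymes were called late against early, where 0.0352% of all genes were called. On those arrays 8 enzymes had an unadjusted p under 0.05 (17.4%, against 7.16% of all genes). With 16 arrays 0 were called, against 0% of all genes, and 3 had an unadjusted p under 0.05 (6.52%, against 2.57%). Cyp2c39, a P450 of the fatty acid and drug oxidising 2C group, was 1.35 ± 0.39 above vehicle at 18 h on 16 arrays, with limma's adjusted p = 0.703. Its signals of 869 in the male and 1253 in the female at 18 h stood against vehicle signals of 368 and 503 in males and 556 and 249 in females, and the male 3 h array read 924. Ephx1 was 0.91 ± 0.25 below vehicle over all times with 15 arrays, which leaves a single male vehicle array, and limma's adjusted p was 0.941. That male vehicle array read 963, against 207 to 666 on the 6 male DHT arrays, while the 2 female vehicle arrays read 201 and 300, against 95.2 to 282 after DHT. Antisense control probe sets are a measure of background signal. Their mean log2 level was 6.13 to 7.65 at the early and 7.12 to 8 at the late times. In females it was 6.13 to 6.29 early and 7.32 to 8 late. In males it was 6.3 to 7.65 early and 7.12 to 7.28 late. Once that level entered the 15-array fit, limma's lowest adjusted p of an enzyme late against early was 0.629. The part of background in the time differences was not tested.

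**Figure D2:**
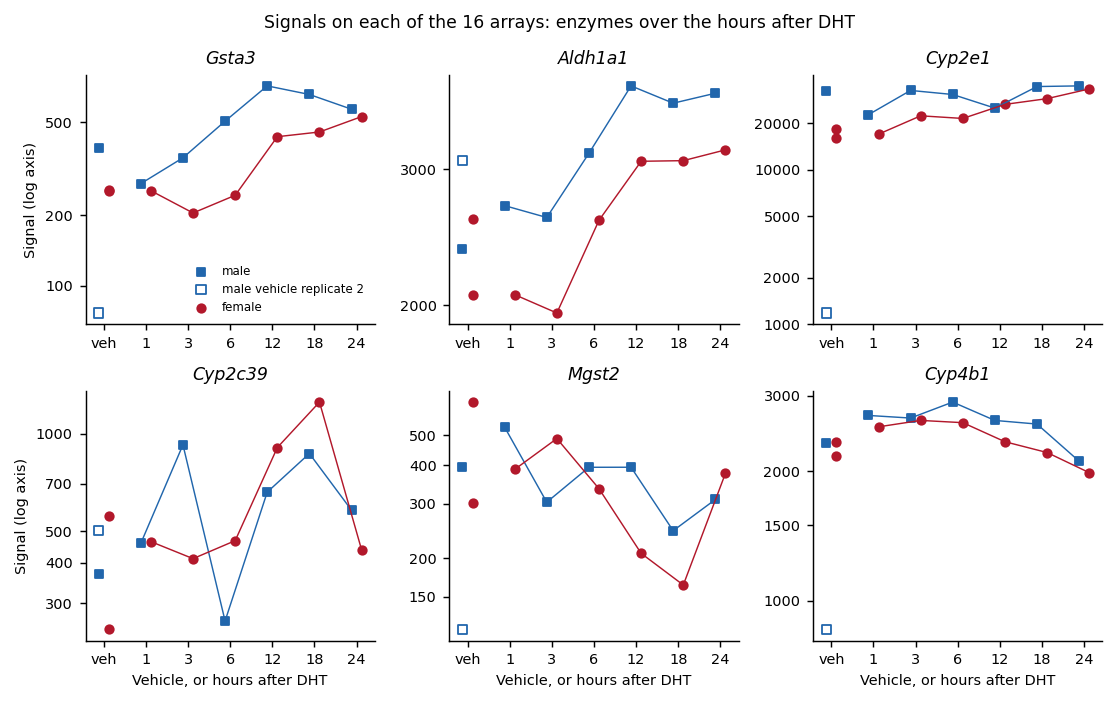
Signals (log axis) of 6 enzymes on each of the 16 arrays, against hours after DHT, with the vehicle arrays at the left. Males are blue squares, females red circles, and male vehicle replicate 2 is the open square. The late arrays of Gsta3 and Aldh1a1 lie above the early arrays of the same sex. In both sexes Cyp2c39 rises from 6 to 18 h and is lower at 24 h, but the male 3 h array reads higher than the male 18 h array. Among the DHT arrays Mgst2 is lowest at 18 h in both sexes.

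The sex difference in the DHT response was called for 0 of 46 enzymes with 16 arrays, 3 of them having p under 0.05 before adjustment, and for 0 with 15 arrays, where 2 had. It was called for 0% of all genes with either set. With 16 arrays the share with p under 0.05 before adjustment was 6.52% of the enzymes and 6.42% of all genes. Cyp2f2, best known as the P450 that oxidises naphthalene in lung, had the lowest p with 15 arrays, where the response was 1.58 ± 0.29 higher in females and limma's adjusted p was 0.552. That value turned on the single male vehicle array, which read 1135 against 436 to 605 on the male DHT arrays.

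Between the sexes the enzymes did differ, mostly with lower signal in females. With 16 arrays 2 of 46 enzymes were called, both lower in females (Mgst3 and Cyp1a1), where 5.75% of all genes were called, 1.13% lower and 4.63% higher in females. Without male vehicle replicate 2, 20 of 46 were called, 18 lower and 2 higher in females, where 16.6% of all genes were called, 7.76% lower and 8.83% higher. The change in the count came from that 1 array, and leaving out any other array of the 16 gave 2 or 3. With 15 arrays 34 of 46 enzymes had lower fitted signal in females, and their median difference was -0.17 on the log2 scale, against 0.00 for all genes. For 11 enzymes all 8 female arrays lay below all 7 male arrays, and for 0 enzymes above. Over all genes the shares were 2.83% and 3.92%. The filter used the mean over all arrays, so an enzyme could pass through the sex where it was higher. Cyp1a1, for 1, had a female mean signal of 103, against a filter at 116. With no filter, 21 of 86 enzymes were called on 15 arrays, 18 lower and 3 higher in females. In that fit 11.4% of all genes were called, and 4.94% were lower in females. The 18 enzymes that were lower came from 8 of the 9 families: 7 of the 12 tested Gst genes, 2 of 13 Cyp, 2 of 2 Fmo, 2 of 8 Aldh, 2 of 2 Ephx, 1 of 3 Pon, 1 of 3 Mgst and 1 of 3 Sult.

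**Figure D3:**
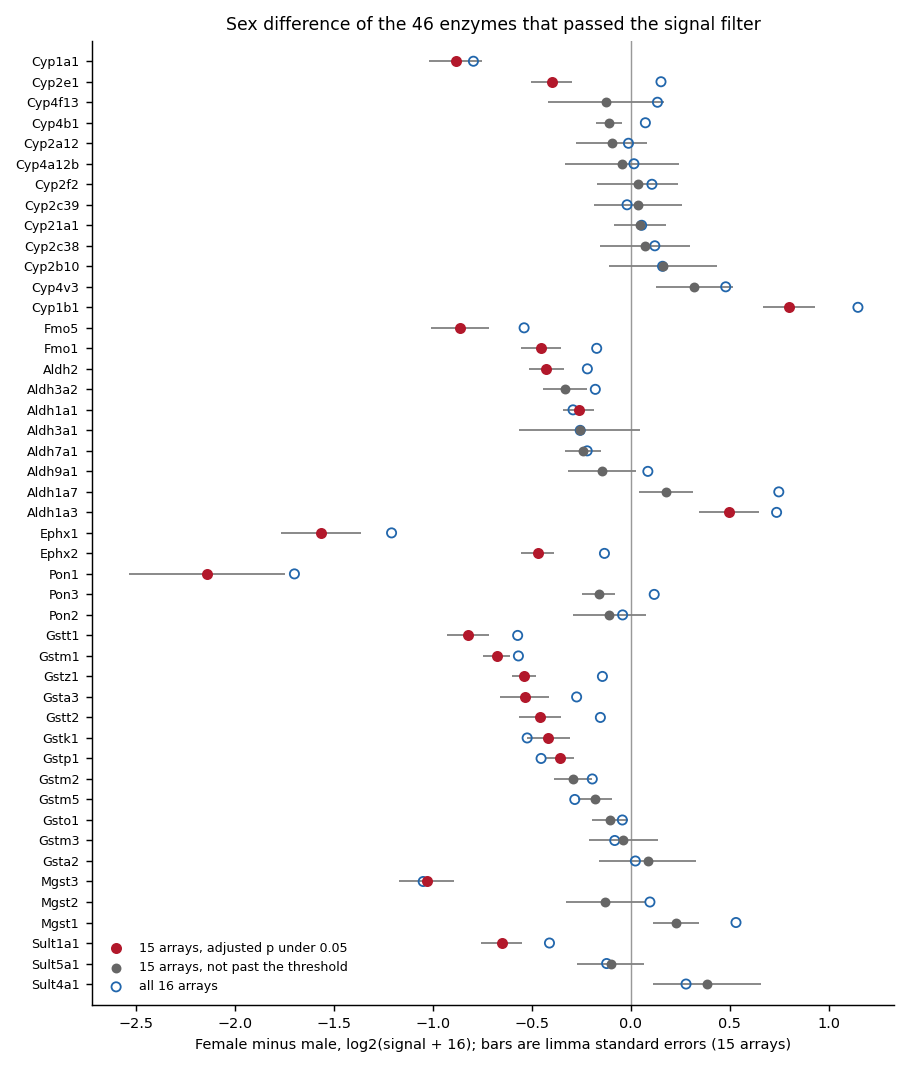
Female minus male difference on the log2(signal + 16) scale for each of the 46 enzymes, ordered by family and then by size. Filled points with standard error bars are the fit on 15 arrays (red, adjusted p under 0.05; grey, not past it) and open circles the fit on 16 arrays. With 15 arrays 18 red points lie left of 0 and 2 right of it, Cyp1b1 and Aldh1a3.

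Upstream sequences are shown for 4 of the enzymes that were lower in females, because they hold letters that steroid or aryl hydrocarbon receptors are known to bind. Gsta3 is added because it had the lowest p late against early on 15 arrays. Each is the 130 bases before the RefSeq start on the gene's strand (mouse GRCm38.p6), read 5′ to 3′. Capitals mark GCGTG, the core of the aryl hydrocarbon receptor's site, in Cyp1a1 (chr9:57697483-57697612, plus strand) and Gstp1 (chr19:4037913-4038042, minus strand). In Ephx1 (chr1:181017570-181017699, minus strand) and Sult1a1 (chr7:126676419-126676548, minus strand) they mark AGAACA, one arm of the androgen receptor's site. In Gsta3 (chr1:21240455-21240584, plus strand) they mark TGACNNNGC, the antioxidant response element bound by Nrf2.
Cyp1a1: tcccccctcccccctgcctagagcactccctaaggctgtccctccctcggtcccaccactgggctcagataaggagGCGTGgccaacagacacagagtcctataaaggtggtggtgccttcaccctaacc
Gstp1: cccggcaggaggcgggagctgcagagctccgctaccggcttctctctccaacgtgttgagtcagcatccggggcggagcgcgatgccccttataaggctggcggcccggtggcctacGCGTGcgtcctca
Ephx1: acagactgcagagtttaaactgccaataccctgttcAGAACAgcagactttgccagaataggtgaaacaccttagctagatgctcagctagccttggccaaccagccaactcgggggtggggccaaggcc
Sult1a1: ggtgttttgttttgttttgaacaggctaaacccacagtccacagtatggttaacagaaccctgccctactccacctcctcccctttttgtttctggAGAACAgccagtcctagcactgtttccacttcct
Gsta3: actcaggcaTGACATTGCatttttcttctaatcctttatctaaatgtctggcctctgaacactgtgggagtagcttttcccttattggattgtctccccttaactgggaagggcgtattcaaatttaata
These letters are common. GCGTG was also in the 130 bases before a start of Gstm1 and of Mgst3, both lower in females. It was there too, on the other strand, for Cyp1b1, which was higher in females. A link between these letters and the direction of a sex difference was not tested. In the 250 bases before a start, on either strand, AGAACA was present in 18 of the 68 enzymes found in the RefSeq table (26.5%) and in 18.2% of its 27025 genes. GCGTG was present in 26.5% of the enzymes and 30.9% of all genes, and TGACNNNGC in 8.82% and 11.5%. The motifs share no letters in the stretches shown. Of the 18 enzymes lower in females, 14 were in the table: 4 held AGAACA, 4 GCGTG and 1 TGACNNNGC. The full androgen element, AGAACA and TGTTCT with 3 bases between them, which contains AGAACA and so counts there too, was in 0 of the enzymes and in 3 genes of the table.

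Among the oxidising enzymes, Cyp1a1, which oxidises polycyclic aromatic compounds, was lower in females. Its male signals ran from 150 to 268 (median 214, 7 arrays) and its female signals from 84.2 to 137 (median 94.5, 8 arrays), and the sexes did not overlap. The difference was -0.89 ± 0.14 (SE, log2) with 15 arrays (limma's adjusted p = 0.000816) and -0.80 ± 0.16 with 16 (adjusted p = 0.0111). These signals are close to the filter, and a second probe set for the gene, below the filter, ran the other way, with means of 51.7 in males and 106 in females. Cyp1b1, its relative among the aryl hydrocarbon receptor's targets, was higher in females. Its signal was 260 to 422 in males (median 342) and 397 to 706 in females (median 568), which overlap slightly, and females were higher at 7 of 7 times (vehicle included). The difference was 0.80 ± 0.13 (limma's adjusted p = 0.00138 with 15 arrays).

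Cyp2e1 was lower in females by a smaller margin. Male signals ran from 22761 to 34984 (median 32287) and female signals from 16086 to 33427 (median 21950), so the groups overlapped, and females were lower at 6 of 7 times. The 15-array difference was -0.40 ± 0.10, with limma's adjusted p = 0.0210, and stayed called in 10 of 15 fits that left out 1 more array. With all 16 arrays the fitted difference had the opposite sign and was not called. The other 10 tested Cyp genes gave differences of -0.13 to 0.32 with 15 arrays, none of them called. They included Cyp4b1, a P450 of fatty acids and small aromatic compounds, at 2113 to 2901 in males and 1987 to 2630 in females.

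The flavin monooxygenases, which oxidise nitrogen and sulfur in drugs, were both lower in females. Fmo5 read 181 to 265 in males (median 226) and 61.8 to 153 in females (median 123), with no overlap, and differed by -0.86 ± 0.15 (limma's adjusted p = 0.00167). Fmo1 read 2932 to 4939 (median 4057) and 2210 to 3679 (median 2738), with overlap, and differed by -0.46 ± 0.10 (limma's adjusted p = 0.00863). Neither was called with 16 arrays, where male vehicle replicate 2 read 24.4 for Fmo5 and 695 for Fmo1.

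The aldehyde dehydrogenases split. Aldh2, the mitochondrial enzyme that clears acetaldehyde and lipid aldehydes, was lower in females by 0.43 on the log2 scale, at 4881 to 5643 in males and 3466 to 5180 in females. Aldh1a1 was lower by 0.26, at 2364 to 3850 and 1954 to 3180. Aldh1a3, another retinaldehyde dehydrogenase, was higher by 0.50, at 147 to 310 in males and 235 to 414 in females. The sexes overlapped for each of the 3, and Aldh1a1 and Aldh1a3 were close to the threshold: limma's adjusted p was 0.0411 and 0.0423, and each stayed called in only 2 of 15 fits that left out 1 more array.

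Both epoxide hydrolases were lower in females. Ephx1, the microsomal enzyme that opens epoxides of drugs and aromatic compounds, read 207 to 963 in males (median 487) and 95.2 to 300 in females (median 159). Females were lower at 7 of 7 times, although the 2 ranges overlapped, and the difference was -1.56 ± 0.20 (2.96-fold, limma's adjusted p = 0.000246 with 15 arrays). Ephx2, the soluble enzyme that acts on fatty acid epoxides, read 1538 to 1997 in males and 1042 to 1536 in females, with no overlap. It differed by -0.47 ± 0.08 with 15 arrays (limma's adjusted p = 0.00205). Pon1, the paraoxonase that circulates with high-density lipoprotein, had the greatest fitted sex difference of the 46 with 15 arrays: 376 to 665 in males (median 503) against 27.8 to 287 in females (median 117). The value was -2.14 ± 0.39 (4.42-fold, limma's adjusted p = 0.00277), the 8 female arrays spread widely, and Pon2 and Pon3 were not called, at -0.11 and -0.16.

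Of the 12 tested glutathione transferases 7 were lower in females. Gstm1, the main mu-class enzyme, read 12077 to 15477 in males (median 14480) and 8172 to 9513 in females (median 8817), with no overlap. The difference was -0.68 ± 0.07 (1.60-fold), and limma's adjusted p of 4.131e-05 was the lowest of the 46 with 15 arrays. Its probe set carries the suffix that Affymetrix gives to sets shared by a gene family, and a second, dimmer set for Gstm1 differed by only -0.04. Gstz1, which also serves tyrosine breakdown as maleylacetoacetate isomerase, read 9444 to 13058 in males and 6723 to 8852 in females. The sexes did not overlap and the difference was -0.54 ± 0.06 (limma's adjusted p = 9.642e-05).

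The theta-class genes were also lower in females. Gstt1 read 1185 to 1539 in males and 563 to 942 in females (-0.82 ± 0.11), and Gstt2 619 to 764 and 383 to 570 (-0.46 ± 0.11), with no overlap in either. Gstp1 was lower by 0.36 ± 0.07, at 4493 to 5062 and 3227 to 4377, also with no overlap. Gsta3 (-0.54 ± 0.12) and the mitochondrial and peroxisomal Gstk1 (-0.42 ± 0.11) were lower with overlapping signals, and Gstk1 stayed called in 10 of 15 fits without 1 more array. Limma's adjusted p on 15 arrays ran from 0.000262 for Gstt1 to 0.0192 for Gstk1 among these 5. Gstm2 missed the threshold at -0.29 ± 0.10 (adjusted p = 0.0552), and Gsta2, Gstm3, Gstm5 and Gsto1 lay between -0.18 and 0.09.

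Mgst3, a membrane-bound transferase and peroxidase of the MAPEG family, was called with either set of arrays. It read 3913 to 5160 on the 7 male arrays, 5641 on male vehicle replicate 2, and 1161 to 2782 on the females (median 2294). The sexes did not overlap with either set of arrays. The difference was -1.05 ± 0.15 with 16 arrays (limma's adjusted p = 0.00177) and -1.03 ± 0.14 with 15 (adjusted p = 0.000303). Its 2 relatives were not called, with Mgst1 at 0.23 ± 0.12 and Mgst2 at -0.13 ± 0.20. Sult1a1, the phenol sulfotransferase, read 670 to 815 in males and 337 to 623 in females, with no overlap. It differed by -0.65 ± 0.10 (limma's adjusted p = 0.00107 with 15 arrays). The 3 Ugt genes did not pass the filter, and their highest signals were 44.2, 87.9 and 112.

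**Figure D4:**
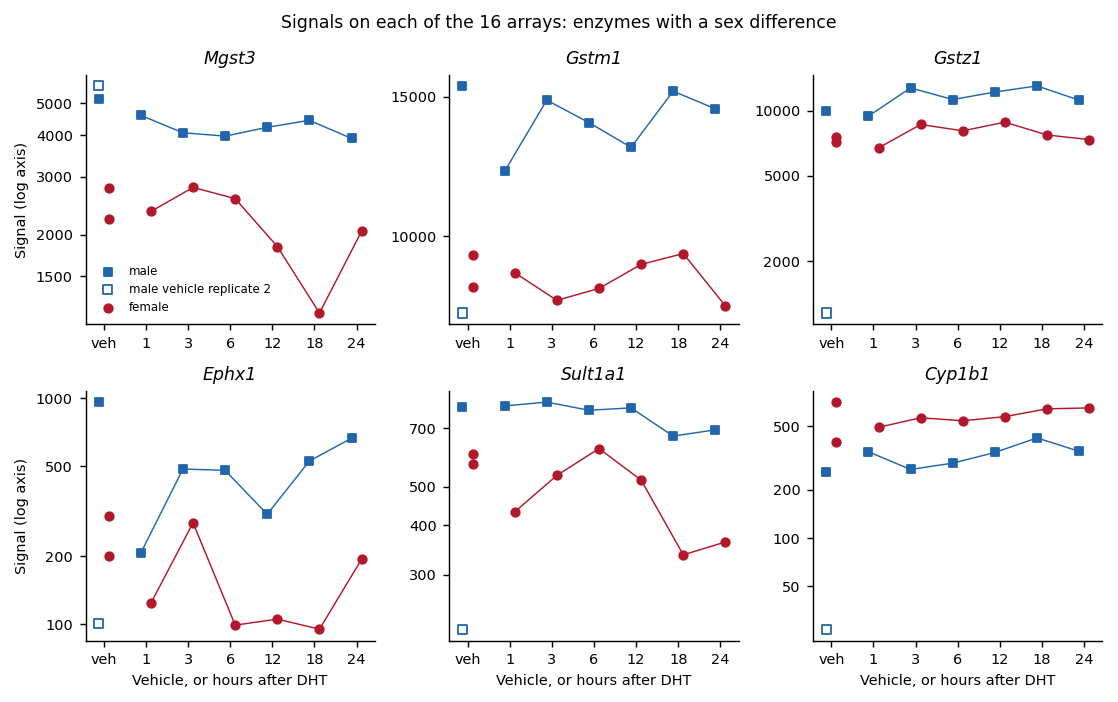
Signals (log axis) of 6 enzymes on each of the 16 arrays, by sex, with the vehicle arrays at the left and the hours after DHT to the right. Males are blue squares, females red circles, and male vehicle replicate 2 is the open square. Male signals exceed female signals for Mgst3, Gstm1, Gstz1, Ephx1 and Sult1a1 at 7 of 7 times without that array, and Cyp1b1 runs the other way.

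Cell markers moved between the sexes as well. With 15 arrays, 8 of the 10 tested macrophage genes were higher in females (summed signal 12420 to 16290 on the male and 21160 to 27580 on the female arrays). Of the 11 tested adipocyte genes 5 were lower and none higher in females, with a median difference of -0.33 and summed signals of 101700 to 136700 and 85150 to 114200. Of the 16 tested muscle genes 7 were lower (median -0.54), with summed signals of 42340 to 74970 on the male and 21220 to 54120 on the female arrays. Of 9 liver genes 3 passed the filter and 0 were called, with sums of 864 to 1274 on the male and 582 to 1412 on the female arrays. The brightest, Serpina1c, read 379 to 534 on the 7 male arrays and 161 to 605 on the female arrays. Kidney genes all failed the filter. Of the 5 tested B and T cell genes 3 were higher in females (median 0.47), among them Cd79a (1.03) and Thy1 (0.70). Of 9 endothelial genes 2 were higher and 1 lower, and of 3 mesothelial genes Wt1 was higher (0.98) and Upk3b lower (-0.38). Adrenal genes gave 1 of 7 higher, and pancreas genes 0 of 6 called. Over all genes 7.76% were lower and 8.83% higher in females with 15 arrays. With all 16 arrays 4 macrophage, 1 mesothelial and 1 B and T cell gene were higher in females. None was called lower there, and the adipocyte, muscle, endothelial and adrenal lists gave 0 calls. Over all genes 1.13% were lower and 4.63% higher with 16 arrays. The part of any of these in the enzymes' sex differences was not tested.

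The rest of the pathway was read from a list of 72 genes, of which 56 were on the array and 45 were tested. DHT over all times, at any single time, or late against early changed 0 of the 45 with either set of arrays. Over all times 4 had an unadjusted limma p under 0.05 with 16 arrays and 2 with 15 (5.1% and 3.06% of all genes). At single times the most was 7, at 18 h with 15 arrays, where 6.4% of all genes had one. Late against early it was 1 with 16 arrays and 4 with 15 (2.57% and 7.16% of all genes). Between the sexes 2 of 45 were called with 16 arrays (4.44%, against 5.75% of all genes) and 9 with 15 (20%, against 16.6%), shares near those of all genes. Those lower in females with 15 arrays were Aox1, the molybdenum aldehyde oxidase (-0.75), Ces1d, a carboxylesterase (-0.93), the electron donors Cyb5a (-0.47) and Fdx1 (-0.54), Adh1, an alcohol dehydrogenase (-0.34), and Tiparp, an aryl hydrocarbon receptor target (-0.96). Those higher were Hmox1, haem oxygenase (0.52), and the transcription factors Bach1 (0.67) and Maf (0.69). Aox1 read 1113 to 1620 in males and 720 to 945 in females, without overlap, and its limma adjusted p was 9e-05. Ces1d read 6471 to 11808 and 3849 to 6384, also without overlap. The receptor gene Ahr was not called, at 0.12 ± 0.17 with limma's adjusted p = 0.706 on 15 arrays. Fdx1 and Hmox1 were the 2 called with all 16 arrays.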

How the data were processed

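The authors deposited a linear intensity per probe set, the MAS5 signal, per the submitters' processing notes. The release of MAS5 was not given in the sources used here. The 2% trimmed mean was 500 on each of the 16 arrays, so the signals were globally scaled. Probe sets were named from the platform annotation: of 12488, 10833 had 1 gene symbol, 396 had several and were left out with 66 control sets and the unnamed ones. All 86 enzymes matched a GRCm38.p6 gene.

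Signals were taken as log2(signal + 16), which understates changes of low signals, and genes under the 40th percentile were dropped. Fits used limma 3.58.1 in R 4.3.3 (terms for sex and time, eBayes with a trend), leaving 8 residual degrees of freedom with 16 arrays and 7 with 15; calls are at an adjusted p under 0.05. The fit was tested on simulated data with independent normal noise and the spread of the 15 arrays. No simulated array was like male vehicle replicate 2, so that test does not cover its effect on the 16-array fits. The number of arrays limits the precision. Replicate numbers follow accession order and pair nothing; the term for time matches the sexes by time.

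The enzymes and gene lists, and the rule for naming genes (those called, the lowest p per comparison, the highest and most variable signals), were chosen with earlier results of these data known. The alternatives were other filters, pseudocounts, normalization, probe set rules and models, and leaving out each array.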

Additional observations from a re-analysis of the deposited data

Results flagged for a closer look

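Among the 35 enzymes named by the rule, the signal of 1 array lay far from the other 7 of its sex in 25 of the 70 groups tested (gap over range above Dixon's critical value). The groups share arrays and each mixes vehicle and DHT times, so the count has no chance rate to be set against. In 20 of the 25 the array was male vehicle replicate 2, the one rich in muscle transcripts. It was the highest male array for Gstm5 (6342, others 3070 to 3958) and Gstp1 (8700, others 4493 to 5062). For 18 enzymes it was the lowest.

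Among the oxidising enzymes its signal was 27 for Cyp1b1, 1180 for Cyp2e1, 858.7 for Cyp4b1, 694.6 for Fmo1, 24.36 for Fmo5, 56.73 for Aldh1a3, 49.15 for Aldh1a7 and 1773 for Aldh2. The 7 other male arrays read 1329 to 2262 for Aldh1a7 and 260 to 422 for Cyp1b1. Among the hydrolases and transferases it was 300.3 for Ephx2, 26.71 for Pon1, 76.53 for Gsta3, 8006 for Gstm1, 1876 for Gstm2, 347 for Gstt1, 116.7 for Gstt2, 1147 for Gstz1, 852.6 for Mgst1 and 218.9 for Sult1a1.

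The other 5 single-array values were spread over several arrays. Cyp2f2 was highest in males on vehicle replicate 1 (1135, others 410 to 605). Fmo1 was highest in females at 24 h (3679, others 2210 to 2797), and Gstm5 was lowest there (2212, others 3038 to 3680). The female 18 h array was the lowest for Fmo5 (61.84, others 102 to 153) and for Mgst3 (1161, others 1843 to 2782).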

How the results depend on the processing

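With 16 arrays the count of enzymes called between the sexes was 2; it was 1 with genes under the 60th percentile left out, 1 with the mean of a gene's probe sets, 0 when every sex and time had its own mean, and 2 to 20 when 1 array was left out (20 without male vehicle replicate 2, 22 with the antisense level as an added covariate on those 15 arrays, an alternative chosen after seeing the data). Counts of 0 for DHT over all times, single times, the F test and late against early stayed 0 in every alternative run on 16 arrays. The count for female against male DHT response ran from 0 to 26 on leaving out 1 array, the 26 being without male vehicle replicate 1, which leaves the muscle-rich array as the only male vehicle; the cause was not tested. That highest count for the DHT response is given without the share of all genes called in the same fit. It therefore cannot show anything particular to the enzymes. On 15 arrays the sex count was 20, where 16.6% of all genes were called. It was 10 when every sex and time had its own mean (6.17% of all genes). The stricter filter (34 enzymes tested) gave 16 (19.9% of all genes), and averaged probe sets also gave 16 (16.1%). With no filter it was 21 of 86 tested (11.4% of all genes). The other settings gave 18 to 20 (15.2% to 16.8%), and leaving out 1 more array gave 17 to 19 (11.8% to 17.2%). With averaged probe sets 39 enzymes passed the filter; Cyp1a1, Cyp1b1, Fmo5 and Sult1a1 did not and so were not tested, and Gstm1 became -0.36 and Mgst3 -0.62. Gsta3 late against early passed on 15 arrays with pseudocount 64 (adjusted p = 0.0493), the stricter filter (0.0360) and averaged probe sets (0.0394), not in the other settings (up to 0.374, or 0.629 with the antisense covariate), and ran from 0.0528 to 0.267 on leaving out 1 more array.

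Single values that reversed were few, and the cause was not tested. With averaged probe sets Gstm5 became 0.015 at 24 h and 0.058 over all times. Without male vehicle replicate 2, Gstp1 in the sex difference of the response was -0.15 both with and without the antisense covariate. With that covariate on 15 arrays Gsta2 became 0.16 over all times (-0.03 without it); late against early, Cyp4a12b became -0.10 and -0.11, Gstk1 0.11 and 0.011, and Mgst3 0.031 and 0.052 (16 and 15 arrays). Cyp2e1 between the sexes became -0.036 with separate means and -0.40 without male vehicle replicate 2, or -0.35 with the covariate added. On leaving out 1 array, ranges crossing 0 were -0.40 to 0.46 for Cyp2e1, -0.47 to 0.0041 for Ephx2 and -0.54 to 0.024 for Gstz1 between the sexes, -1.29 to 0.14 for Cyp4a12b at 3 h, and -0.15 to 0.71 for Gstp1 in the sex difference of the response.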
